A study of Mus musculus with 26 samples.

Results

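The cytosolic ribosomal protein genes encode the protein parts of the ribosomes that translate nuclear mRNAs in the cytoplasm. Members were the protein-coding genes of the mouse gene table (GRCm38.p6, the assembly of mm10) with a symbol of the form Rpl or Rps followed by a number and an optional letter, together with Rpsa, Rplp0, Rplp1 and Rplp2. Ribosomal S6 kinases and pseudogenes were left out. The rule found 84 members among 21627 protein-coding genes on the chromosomes that carry peaks, 32 for the small subunit (Rps) and 52 for the large subunit (Rpl). It does not take in Fau and Rack1, whose products are also part of the ribosome, nor Rpl36al.

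The study profiled H3K4me3, a histone mark of active and poised start sites, by chromatin immunoprecipitation in mouse Ebf1-/- progenitors and in Early-B cells derived from these. All cells lack the endogenous Ebf1 gene product. Early-B cells received EBF1 through the retroviral vector MigR1-EBF1.ER and spent 2 days on OP9 stromal cells. The medium held IL-7, SCF and FLT3-L as cytokines, and 4-O-Hydroxy-tamoxifen, which switches the fusion protein on. The culture of the progenitors used for this assay, and how many animals or clones stand behind either group, are not given in the labels. The labels list 2 immunoprecipitated samples per group, but each group had 1 deposited peak list, so no value below has a replicate spread, and no test between the groups was possible. The lists hold no read counts and the depth behind each peak is unknown.

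A ribosome is assembled in the nucleolus from ribosomal RNA and many different proteins, each needed in a fixed number of copies, and its protein genes are transcribed strongly in growing cells. Their mRNAs start with a C and a run of pyrimidines, the terminal oligopyrimidine (TOP) motif, through which translation of all of them is adjusted together to growth signals. In blood, loss of 1 copy of several of these genes, RPS19 the best known, causes Diamond-Blackfan anaemia.

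The peak lists held 48054 peaks for Early-B and 31414 for progenitors. Each peak has a length and a pileup, which is the authors' coverage value for the peak. Pileup was used only to rank peaks within a list. Lengths, which record where the caller drew the edges, were set side by side between lists. As a check of the labels, all 10 B lineage markers examined had a peak at a gene end in Early-B and 6 did in progenitors, where Pax5, Blnk and Igll1 were among those with none. The 6 include Cd79a, whose progenitor peak overlapped only the edge of its span. Of 4 markers of other tissues, 1 had a peak in Early-B, with a pileup of 11.1, and none did in progenitors. Of 7 stromal markers, 7 had one in Early-B, with pileups from 10.0 to 53.0, and 2 in progenitors, with pileups up to 21.6. Both blood markers, Ptprc and Spi1, had peaks in both lists. In each list 81 of the 82 ribosomal protein genes with peaks lay above the highest stromal marker. The part of stromal cells in the results was not tested.

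Nearly every ribosomal protein gene was marked in both states. Both lists had a peak no more than 1 kb from a gene end at 82 of 84 members, against 54.1% of all protein-coding genes, and no member had a peak in 1 list only. All 32 Rps genes and 50 of 52 Rpl genes were among them. The exceptions were Rpl10l and Rpl39l, paralogs known from testis, which had no peak in either list. Where several peaks met a gene, the one with the highest −log10 p was used. The caller's q was at or below 0.05 for all 82 members in both lists, while 33.2% of all Early-B peaks and 33.4% of all progenitor peaks had a q above 0.05. Because neighbouring members can share a peak, the 82 genes rest on 81 distinct peaks per list.

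Start sites and strands were taken from RefSeq promoter entries (GRCm38.p6), which matched 64 of the 84 members, 54 of them with 1 listed start. The stretches below run from 60 bases before the annotated start to the 20 bases from it on, 5′ to 3′. The first 6 are shown because they carry a pyrimidine run at the start: Rpl27a has the longest run, and the other 5 have peaks described below. The last pair belongs to the 2 members with no peak. Capitals mark the longest run of C and T that begins with C within 5 bases of the annotated start, where it has at least 5 bases. 
Rpl27a, chr7:109519135-109519214, plus strand: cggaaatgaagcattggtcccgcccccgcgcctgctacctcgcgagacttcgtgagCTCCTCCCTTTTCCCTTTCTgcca
Rpl35, chr2:39005112-39005191, minus strand: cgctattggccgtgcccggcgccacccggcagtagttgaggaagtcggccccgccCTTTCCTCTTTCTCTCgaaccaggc
Rpl7a, chr2:26910747-26910826, plus strand: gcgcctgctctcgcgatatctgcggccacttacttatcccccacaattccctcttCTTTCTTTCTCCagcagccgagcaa
Rplp2, chr7:141447591-141447670, plus strand: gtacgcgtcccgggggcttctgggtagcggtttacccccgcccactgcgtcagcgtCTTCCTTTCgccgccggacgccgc
Rps26, chr10:128626487-128626566, minus strand: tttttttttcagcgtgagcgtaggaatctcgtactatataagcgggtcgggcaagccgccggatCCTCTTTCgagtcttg
Rpl31, chr1:39367791-39367870, plus strand: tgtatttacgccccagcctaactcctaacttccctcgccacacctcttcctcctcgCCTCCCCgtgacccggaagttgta
Rpl10l, chr12:66284382-66284461, minus strand: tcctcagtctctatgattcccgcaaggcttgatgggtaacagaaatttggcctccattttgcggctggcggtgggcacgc
Rpl39l, chr16:10170168-10170247, plus strand: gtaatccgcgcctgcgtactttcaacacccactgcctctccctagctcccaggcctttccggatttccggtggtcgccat

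Such a run was present in 32 of 76 promoter entries of members (42.1%) and in 18.7% of the 21044 entries of all protein-coding genes. It was longest at Rpl27a, with 20 bases, and its median length where present was 8 bases in members and 6 in all genes. Among motifs sought on both strands over the 300 bases of an entry, CCGGAAG, a core of ETS and GABP sites, was held by 35.5% of members' entries and 11.7% of all. GGGCGG, an SP1 core, was held by 59.2% and 46.7%, and AAGATGGCG, a YY1 core, by 7.89% and 1.84%. TATAAA was held by 10.5% and 12.7%. CCGGAAG read on the other strand contains CTTCC and can therefore overlap a pyrimidine run. These are matches of letters and not measured sites. The 30 members with a run and a peak had a median peak length of 4317 bp in Early-B and 4066 bp in progenitors, and the 32 with an entry but no run had 4641 and 3962.5 bp (medians, as for all groups here).

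Peaks at ribosomal protein genes were long in both cell states, and most were slightly longer in the Early-B list. The Early-B peaks ran from 203 to 13387 bp with a median of 4570.5 bp, and the progenitor peaks from 204 to 9963 bp with a median of 4049.5 bp. Over all 11707 protein-coding genes with a peak in both lists the medians were 3222 and 2830 bp. In Early-B 75 of the 82 members lay above the median of all genes, and in progenitors 74 did. Within the whole lists, weak peaks included, the median member stood at the 93.7th percentile of length in Early-B and the 91.3rd in progenitors. Among all genes with a peak in both lists it stood at the 77.6th and the 76.4th. The longest in Early-B after Rpl24 were Rpl35 (10940 bp), Rpl23a (10580 bp), Rpl7a (10147 bp) and Rps19 (10109 bp), and in progenitors Rpl35 (9963 bp), Rpl13a (9188 bp) and Rpl23a (8460 bp) were among the longest. The shortest after Rpl32l were Rpl22l1 (2519 bp), Rpl36 (2665 bp), Rpl26 (2722 bp) and Rpl38 (2899 bp) in Early-B. In progenitors they were Rpl3l (1528 bp), Rpl29 (2305 bp), Rpl36 (2442 bp) and Rpl22l1 (2482 bp). Rpl35, a protein at the exit of the peptide tunnel, was thus near the top of both lists and Rpl36 near the bottom of both. By subunit, the median was 4570.5 bp for Rps and 4554.5 bp for Rpl genes in Early-B, and 4244.5 and 3843 bp in progenitors.

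Comparing the lists gene by gene, 63 of the 82 members (76.8%) had the longer peak in Early-B, where 64.4% of all genes did. The median log2 ratio of Early-B to progenitor length was 0.15 for members and 0.11 for all genes. An Early-B peak at least 1.5 times as long was found at 10 members (12.2%), against 15.4% of all genes, and a progenitor peak at least 1.5 times as long at none, against 6.01%. How the share past 1.5-fold in Early-B stood to that of all genes depended on the setting. With peaks of a −log10 p of at least 100 it was 12.2% of members against 7.25% of all genes, and with bases covered in the gene span 3.66% against 21.2%. The latter count sums all peaks within a gene and takes in more at long genes. Its 2 shares are therefore not of like measures. The members' ratios were packed more tightly than those of all genes: their SD was 0.35 on the log2 scale and that of all genes 0.65. Gene groups compared below shared this. The SD was 0.27 for translation factors and other TOP mRNAs, 0.30 for proteasome and 0.33 for respiratory chain genes. It was 0.45 for mitochondrial ribosomal protein and 0.46 for ribosome biogenesis genes. A progenitor peak past 1.5-fold was found at 2 mitochondrial ribosomal protein and 2 respiratory chain genes, and at none of the other 3 groups. The longer peak was the Early-B one at 24 of 32 Rps and 39 of 50 Rpl genes. Across members the log2 lengths in the 2 lists had a Pearson r of 0.87 (n = 82 genes), and across all genes 0.73. Genes are not independent samples, and these correlations are descriptions.

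**Figure D1:**
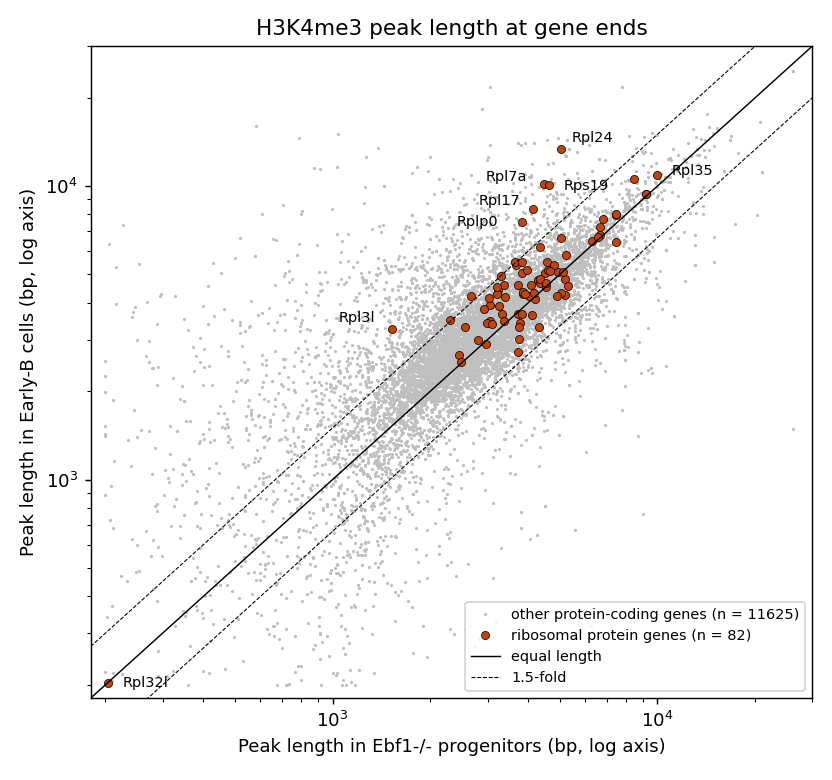
Length of the H3K4me3 peak at gene ends in Early-B cells (vertical, bp, log axis) against Ebf1-/- progenitors (horizontal, bp, log axis), with ribosomal protein genes as red circles over all other protein-coding genes in grey. The solid line marks equal length and the dashed lines a 1.5-fold difference; 10 members lie above the upper dashed line and none below the lower.

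Of the 10 members past 1.5-fold, 5 had an Early-B peak that joined 2 separate progenitor peaks. At Rpl24, a large subunit protein at the contact with the small subunit, the peak covered 13387 bp in Early-B (chr16:55963100-55976486) and 5047 bp in progenitors (chr16:55964968-55970014). The Early-B peak also took in a separate progenitor peak of 4159 bp at Zbtb11, across a gap of 2763 bp. Joining of this kind, 1 Early-B peak over 2 progenitor peaks, was seen at 6 members: Rpl24, Rpl17, Rpl7a, Rplp0, Rps13 and Rps7. The reverse, 1 progenitor peak over several Early-B peaks, was seen at none. Joining was not counted over all genes, of which 64.4% had the longer peak in Early-B. Whether it is more frequent at members is therefore not known.

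Rpl7a, which lies in the Surfeit gene cluster on chromosome 2, had a 10147 bp peak in Early-B. In progenitors it had a 4460 bp peak, with a 4076 bp peak beyond a gap of 1235 bp. Rplp0 encodes the base of the stalk that recruits elongation factors, and its peak covered 7537 bp in Early-B and 3816 bp in progenitors, where a peak of 2219 bp lay 1562 bp further on. That second peak lies toward Gcn1, an activator of the kinase that senses amino acid shortage. At Rpl17, a protein at the exit of the peptide tunnel, the lengths were 8373 and 4147 bp with a gap of 951 bp. The gaps at Rps13 and Rps7 were 886 and 814 bp.

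The other members past 1.5-fold each met 1 progenitor peak. They were Rps19, Rpl3l, Rps26, Rpl29 and Rplp2. Rps26, a small subunit protein near the mRNA exit, had 4222 bp in Early-B and 2674 bp in progenitors. Rpl29 had 3495 and 2305 bp, and Rplp2, a stalk protein, had a length ratio of 1.51. For the 76 members whose Early-B peak met a single progenitor peak, 57 were longer in Early-B and the median log2 ratio was 0.13.

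Rps19 stood out for where its Early-B peak led. The peak ran over chr7:24883507-24893615 in Early-B and chr7:24883547-24888177 in progenitors, so the near edges differed little and the far edge lay 5438 bp further on in Early-B. That edge points to Cd79a, which encodes a signalling chain of the B cell receptor and begins at position 24897497. In Early-B the next peak, 12338 bp long and lying over Cd79a, began 1847 bp after the end of the Rps19 peak. In progenitors 13620 bp without a peak followed the Rps19 peak, and the next began at 24901798, at the far end of Cd79a. Rps19 was singled out after its values were seen.

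Members were also split by whether a neighbouring gene shared the peak. A longer peak reaches a neighbour more readily, so this split is not independent of the lengths compared. In at least 1 list 38 members had a peak that also came within 1 kb of the end of another coding gene. Among these, 8 (21.1%) were past 1.5-fold in Early-B, against 11.2% of all genes with such a peak. Among the 44 members whose peaks reached no other gene, 2 were (4.55%), Rps26 and Rps19, against 17.5% of all such genes. Of the 8 with a neighbour, Rpl17, Rpl29, Rplp0 and Rps13 reached it with the Early-B peak only. Those 44 members had long peaks too: their median was 4292 bp in Early-B and 3843.5 bp in progenitors, against 3006.5 and 2599.5 bp for all 7766 such genes. Counting the bases covered by any peak within the gene and 1 kb around it, instead of 1 whole peak, left 3 members past 1.5-fold: Rps19 (1.57), Rpl29 (1.52) and Rpl24 (1.51). These are 3.66% of members, against 21.2% of the 13356 genes counted this way. Such a count also takes in peaks deep inside long genes, while most members are short and have their peak cut at 1 kb. The 2 shares are therefore not of like measures.

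Members with the longer peak in progenitors differed by less. The largest ratios of progenitor to Early-B length were 1.37 at Rpl26, whose product binds p53 mRNA, and 1.31 at Rps27. Rpl21 followed, with 3008 bp in Early-B and 3761 bp in progenitors, and then Rpl15 with a ratio of 1.22. At Rpl26 the peak covered 2722 bp in Early-B and 3720 bp in progenitors. The well known members that follow, all but Rpsa chosen after their values were seen, had the longer peak in Early-B. Their ratios of Early-B to progenitor length ran from 1.02 at Rpl5 to 1.30 at Rpl22. Rpl5, which with Rpl11 restrains the p53 regulator MDM2, had 3457 and 3382 bp. Rps6, the substrate of the S6 kinases, had 3915 bp in Early-B and 3256 bp in progenitors, and Rpsa had 4271 and 3903 bp. Rpl22, a protein needed for the development of αβ T cells, had 3824 and 2935 bp.

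The mark reached far into these short genes. The median span of members with peaks was 3179 bp, against 21301 bp for all genes. The peak covered the gene from end to end at 42 members in Early-B (51.2%) and 32 in progenitors (39.0%), against 3.79% and 3.18% of all genes. Among the 3675 genes no longer than the longest member the shares were 12.1% and 10.1%. Those genes had median peak lengths of 3164 and 2811 bp, below the medians of members in each list. Only their longest span was limited, and they were not matched to members in span. Across members, log2 peak length and log2 gene span had a Pearson r of 0.33 in Early-B and 0.26 in progenitors (n = 82 genes).

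Relative to the start site, the extra length of members' peaks over those of all genes lay mostly downstream. This was measured at the 50 members with 1 listed start and peaks over it in both lists. In Early-B the peak reached a median of 1370 bp upstream and 3226.5 bp downstream of the start, and in progenitors 1136 and 3021 bp. For the 6566 genes of any kind that met the same conditions the medians were 1185 and 1891 bp in Early-B and 940 and 1770.5 bp in progenitors. The downstream side was the longer at 46 of the 50 members in each list, against 75.9% and 79.7% of all genes. The far end of the gene was reached or passed by the peak at 29 of the 50 in Early-B and 21 in progenitors. Of the 6566 genes, 334 in Early-B and 293 in progenitors had such a peak. The median distance from the start to the far end was 3101.5 bp for members and 20606 bp for these genes.

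The edges were also compared between lists, each counted by itself. The upstream edge lay further out in Early-B at 37 of 50 members (74.0%), against 69.3% of all genes, and the downstream edge at 32 (64.0%), against 56.9%. The median shift was 151.5 bp upstream and 145.5 bp downstream. The large downstream shifts belonged to Rpl24 (6472 bp), Rpl7a (5658 bp) and Rplp0 (3834 bp), all members with joined peaks. Rps7 (1829 bp) and Rplp2 (1505 bp) followed. In the other direction, the downstream reach of Rpl26 differed by -1144 bp (Early-B minus progenitors). Upstream, Rpl35 and Rpl36a had the longest reach in both lists, 7821 and 5457 bp in Early-B and 7104 and 5275 bp in progenitors. The Rpl35 peak also met Arpc5l and Wdr38, and the Rpl36a peak met Gla and Btk, the kinase of B cell receptor signalling.

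**Figure D2:**
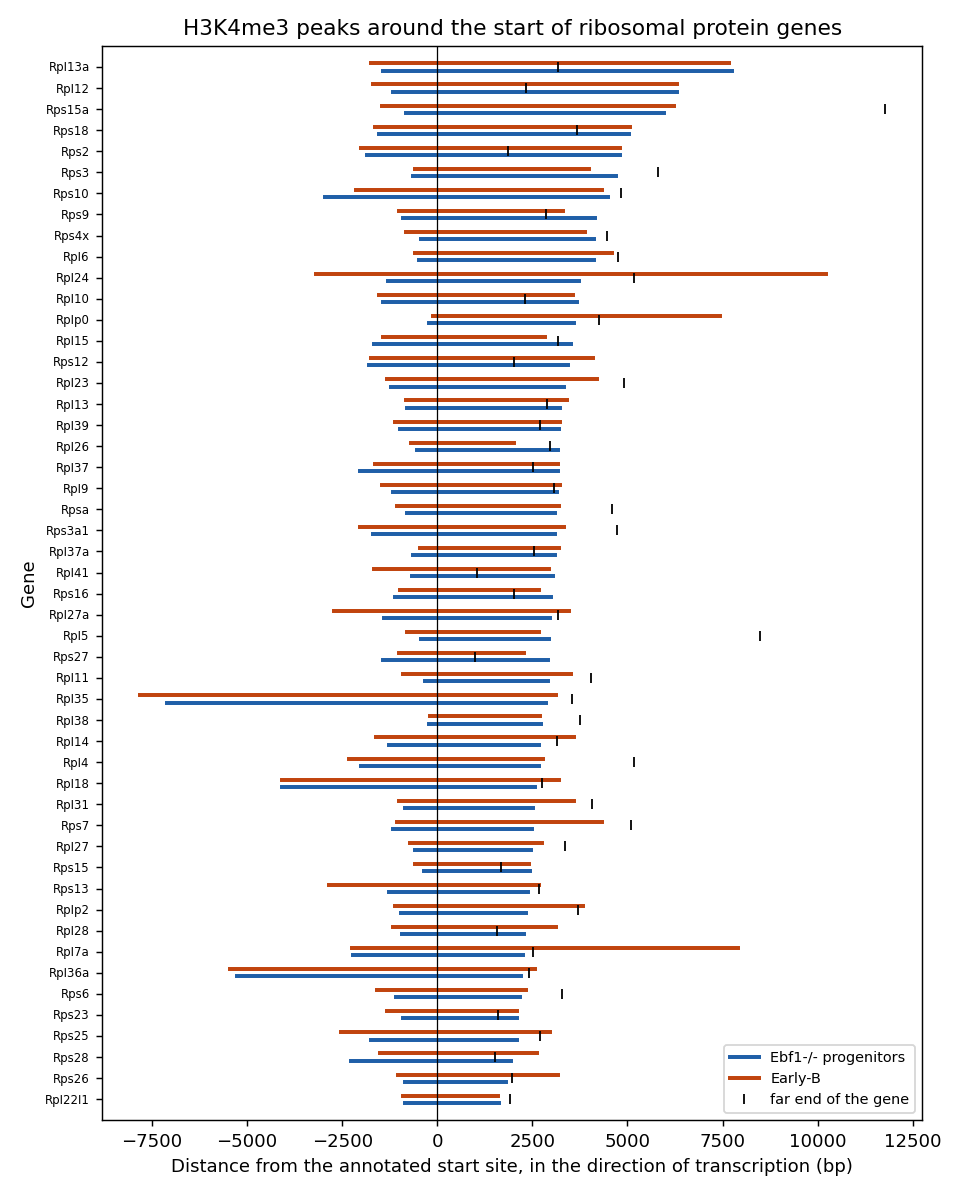
Reach of the H3K4me3 peak around the annotated start site (0 on the horizontal axis, bp in the direction of transcription) at 50 ribosomal protein genes, with Early-B in red, Ebf1-/- progenitors in blue and the far end of each gene as a black tick. At 46 of the 50 genes in each list the downstream side is the longer; the red bars of Rpl24, Rpl7a and Rplp0 run furthest past the blue ones.

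Pileup placed the ribosomal protein genes in the upper part of each list. In Early-B the pileup of members ran from 17.2 to 241 with a median of 147, and 70 of 82 lay above the all-gene median of 120. In progenitors it ran up to 276 with a median of 185 and quartiles of 166 and 207, and 68 lay above the all-gene median of 154. Among all genes with a peak in both lists the median member stood at the 74.9th percentile in Early-B and the 73.7th in progenitors. Within the whole lists, weak peaks included, it stood at the 94.9th and the 91.7th. Among the highest in Early-B were Rpl31 (241), Rpl34 (223), Rpl38 (216) and Rpl9 (192). In progenitors they were Rps15 (276), Rpl4 (251), Rpl29 (246), Rpl9 (242) and Rpl38 (238). At Rpl31 the Early-B peak lay at chr1:39366852-39371445, over the start printed above, and at Rps15 the progenitor peak lay at chr10:80292077-80294879. Rpl9 and Rpl38, a protein known for its part in the translation of Hox mRNAs, were thus among the first 5 in both. The authors' fold enrichment over background had a median of 18.9 (range 2.48 to 31.4) for members in Early-B and 23.4 (range 2.45 to 34.6) in progenitors. Length and pileup did not rise together: across members their Spearman rho was -0.36 in Early-B and -0.34 in progenitors (n = 82 genes).

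The 4 members on chromosome X were low in both lists. Rpl10, which takes part in the last step of large subunit maturation, had a pileup of 75.3 in Early-B and 99.3 in progenitors. Rpl36a had 75.8 and 85.6, Rps4x 92.4 and 103, and Rpl39 108 and 134. The medians were 84.1 for X-linked and 149 for autosomal members in Early-B, and 101 and 186 in progenitors. All genes on chromosome X shared this: the medians of 313 X-linked and 11394 autosomal genes were 77.3 and 121 in Early-B and 95.2 and 156 in progenitors. Median peak lengths were 4896.5 bp for X-linked and 4533.5 bp for autosomal members in Early-B and 4818.5 and 3931.5 bp in progenitors. Over all genes the X-linked peaks were the shorter, with medians of 2749 and 3236 bp in Early-B and 2554 and 2841.5 bp in progenitors. Whether the cells carry 1 or 2 X chromosomes is not given in the labels, and its part was not tested.

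**Figure D3:**
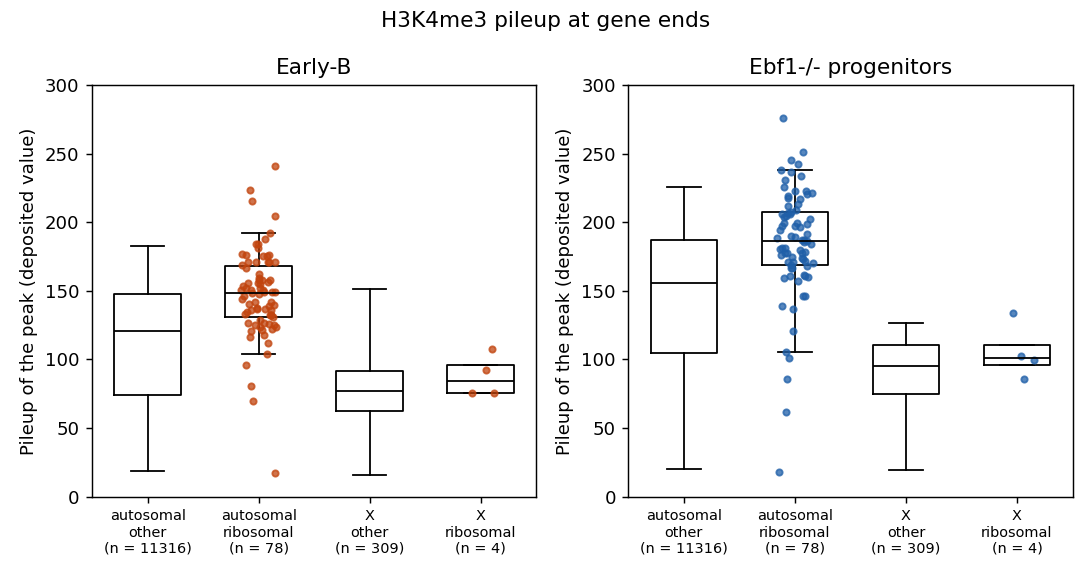
Pileup of the H3K4me3 peak at gene ends (the authors' value, vertical) in Early-B (left) and Ebf1-/- progenitors (right) for autosomal and X-linked genes, with ribosomal protein genes as points. Boxes show the median and quartiles and whiskers the 5th to 95th percentile, with no whiskers for the 4 X-linked members; these 4 lie between 75.3 and 108 on the left and between 85.6 and 134 on the right, below the autosomal members' medians of 149 and 186. The vertical axes belong to separate lists and are not compared.

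Low pileups were also found at autosomal members. In Early-B, Rps29 had 96.0 and Rpl24 104, and in progenitors Rpl3 had 101, Rps10 105 and Rps24 121, all below Rpl39. Some paralogs and Rpl19, whose strongest peak lay inside its annotated span and not at an end, were lower still. Rpl32l, on chromosome 10, had a 203 bp peak in Early-B (pileup 17.2) and a 204 bp peak in progenitors, where its pileup was again the lowest of all members, both inside its 592 bp span. Rpl3l, a paralog known from heart and skeletal muscle, had 3254 bp (80.3) and 1528 bp (61.5). This peak lay at its far end and also met the end of Msrb1, and it cannot be assigned to either gene. Rpl19 had 3420 bp (69.9) and 3786 bp (85.8) at an end shared with Cacnb1. Inside the annotated span of Rpl19, which starts at 98022003 on chromosome 11, a stronger peak lay in both lists, with a pileup of 179 in Early-B (chr11:98025743-98028970) and 219 in progenitors (chr11:98025726-98028952). The first listed start of Rpl19, at 98026710, lies under this stronger peak. Its low pileups of 69.9 and 85.8 thus belong to a peak away from that start. At Rpl7l1 the strongest peaks lay at opposite ends of the gene in the 2 lists, and its length ratio of 1.29 (Early-B to progenitors) compares different peaks. The other paralogs had peaks of ordinary pileup: Rpl22l1 had 2519 and 2482 bp (127 and 146), and Rps27l had 3675 and 3837 bp (158 and 199).

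A feature that the rule did not use is the small nucleolar RNA (snoRNA), a guide for the chemical modification of ribosomal RNA that is often cut from introns of these genes. By annotation, 30 of 84 members (35.7%) held a snoRNA gene inside their span, 59 snoRNA genes in all, against 1.72% of all protein-coding genes and 0.802% of those no longer than the longest member. Rpl4 held the most, with 5, and Rpl7a and Rpl13a were among those with 4. The 30 hosts had a median peak length of 5113 bp in Early-B and 4524 bp in progenitors, and the 52 other members with peaks had 4276 and 3766 bp, at median gene spans of 3179 and 3216.5 bp. Their median pileups were 141 and 149 in Early-B and 179 and 193 in progenitors.

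Genes that work with the ribosome had peak lengths on either side of those of the ribosomal protein genes. All 18 translation factors and other genes with TOP mRNAs had a peak in both lists, with median lengths of 5390 bp in Early-B and 4412 bp in progenitors. Of these, 15 were longer in Early-B, and Npm1, a nucleolar chaperone (8013 and 4462 bp), and Eif3h, an initiation factor subunit (4398 and 2557 bp), passed 1.5-fold. Fau, which encodes a ribosomal protein fused to a relative of ubiquitin, had 8099 bp in Early-B and 7135 bp in progenitors. Rack1 had 6925 and 5286 bp. Of 28 ribosome biogenesis genes, 27 had a peak in both, with medians of 3741 and 2947 bp, 22 were longer in Early-B, and Nop10, Nop2 and Taf1b passed 1.5-fold. Nop10, a part of the snoRNA particles that make pseudouridine, had 9641 bp in Early-B and 2304 bp in progenitors. The exception was Ubtf, a factor for transcription of ribosomal RNA genes, to which neither list assigned a peak. Assignment looked only near the ends of a gene's annotated span. A peak deeper inside the span, like the stronger one of Rpl19, would not be counted, so Ubtf may still carry the mark.

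Gene groups with housekeeping roles outside the cytosolic ribosome had shorter peaks. Mitochondrial ribosomal protein genes had a peak in both lists at 77 of 78, with median lengths of 2898 bp in Early-B and 2781 bp in progenitors. Proteasome subunit genes (45 of 49) had 3244 and 2819 bp, and respiratory chain genes (88 of 96) had 3276 and 2995 bp. Their pileups were close to those of the cytosolic ribosomal protein genes: in Early-B the 3 medians were 145, 143 and 148, against 147, and in progenitors 183, 190 and 182, against 185. The longer peak was the Early-B one at 51 of 77, 32 of 45 and 60 of 88. With 1 list per group these differences in length between gene groups have no test.

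**Figure D4:**
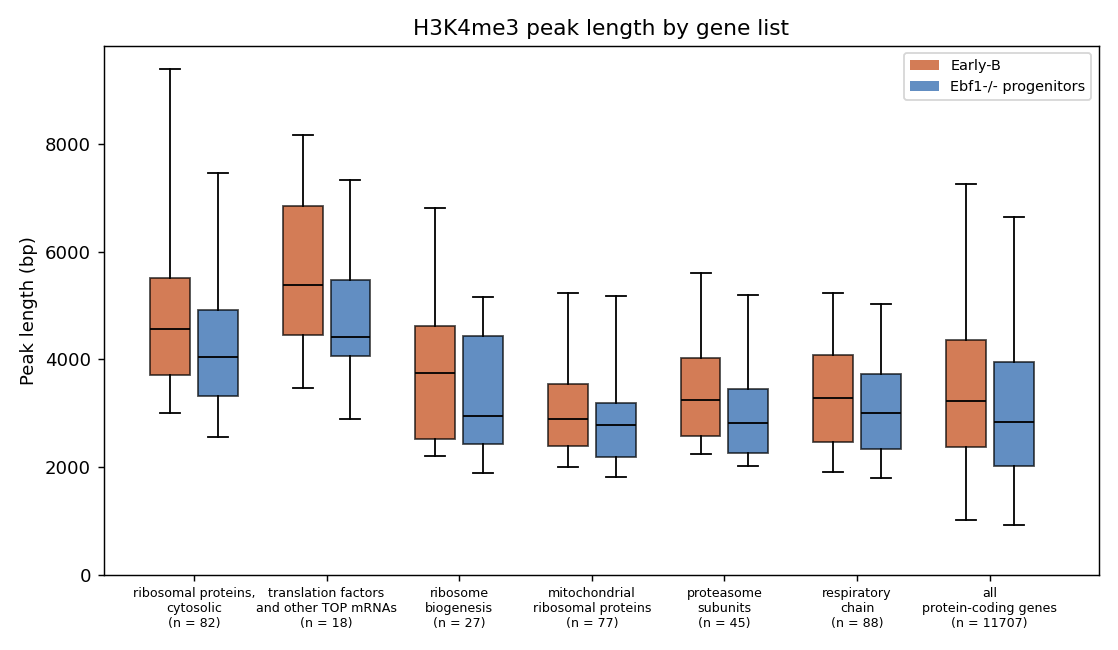
Length of the H3K4me3 peak at gene ends (bp, vertical) for gene lists, in Early-B (red) and Ebf1-/- progenitors (blue), with the median, quartiles and the 5th to 95th percentile as whiskers. The medians are 4570.5 and 4049.5 bp for the cytosolic ribosomal protein genes and 2898 and 2781 bp for the mitochondrial ones.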

How the data were processed

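H3K4me3 peak lists of Early-B cells and Ebf1-/- progenitors were analysed, 1 for each group. The submitters' processing notes name the tools Bowtie 1.1.2 and MACS 1.4.3 without saying what each was used for, and list mm10 with GRCh38 as builds. On pooling of replicates, use of input, treatment of reads that map to several places and caller settings the sources used here say nothing. The pileup is a coverage signal deposited by the authors, and whether it is a mean or a summit value is not stated. Fold enrichment over background is a ratio that the authors deposited. The −log10 p and −log10 q were deposited by the authors under damaged column names and were identified from their order and values.

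Peaks within 1 kb of either end of a gene's RefSeq span were assigned to it, and the peak with the highest −log10 p was used. Only lengths were set side by side between lists. Counts and medians of members stand beside those of all protein-coding genes, with no test. The work used pandas 2.3.3, numpy 2.4.6, scipy 1.17.1 and matplotlib 3.10.9 under Python 3.11.15. Assignment of peaks was tested on simulated peaks. Members, lists and motifs were chosen with earlier results of these data known. Named genes were members without a peak, paralogs, up to 10 with the largest length ratio in each direction, the 5 longest, shortest, highest and lowest in each list, stalk proteins and Rpsa, members whose peak reaches another gene, and up to 3 genes per direction in each pathway list; Rpl5, Rps6, Rpl22, Fau and Rack1 were added after their values were seen. Some genes that the rule names are not reported here. No other assay of the series (microRNA, Ago2, RNA input) and no Early-T sample was analysed here.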

Additional observations from a re-analysis of the deposited data

How the results depend on the processing

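Windows of 500 bp and 2.5 kb, a q of at most 0.05, lists of equal length (31414 peaks), the longest peak, summed peaks, start sites only, removal of paralogs and, chosen after seeing the data, a −log10 p of at least 100, the strongest peak in the span and removal of X-linked members kept the count longer in Early-B and the count past 1.5-fold within 1.5 times of those reported, with a median log2 ratio of 0.13 to 0.16. With a −log10 p of at least 100 the share past 1.5-fold was 12.2% of members and 7.25% of all genes. With members whose peaks reached no other gene, 44 had both peaks, 31 were longer in Early-B and 2 passed 1.5-fold. Fewer members enter here, and the share past 1.5-fold was also lower, 4.55% against 12.2%. This choice of members itself depends on peak length, because a longer peak reaches a neighbour more readily. Counting bases covered in the span, an alternative chosen after seeing the data, gave 3 past 1.5-fold (3.66%, against 21.2% of all genes) and a median log2 ratio of 0.0916, where all genes had 0.12. That count sums all peaks inside a gene and so depends on gene span, which differs between members and all genes. At the lower fold threshold tried 25 members passed in Early-B and 3 in progenitors, and at 2-fold 5 passed in Early-B, where 29.0%, 12.1% and 7.63% of all genes did. Percentiles within a list fell as weak peaks were removed. With a −log10 p of at least 10 the median length percentile was 85.4 in Early-B and 81.6 in progenitors and that of pileup 87.8 and 82.1; with q at most 0.05 they were 90.6, 86.9, 92.4 and 87.6; at equal list lengths the Early-B values were 90.4 and 92.3. No paired analysis was possible because each group has 1 peak list.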

Other observations

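Small peaks also lay at pseudogenes of the ribosomal protein family. Of 324 such pseudogenes on the same chromosomes, 91 (28.1%) had in both lists a peak at a gene end that met no coding gene's end, against 7.66% of 10004 other pseudogenes. These peaks were short, with medians of 367 bp in Early-B and 346 bp in progenitors and 82 and 89 of the 91 under 1 kb. Their median pileups were 18.8 and 20.4. The caller's −log10 p varied widely. It was 67.4 in Early-B and 61.7 in progenitors at Rpl31-ps7, and 1.31 and 1.36 at Rpl36a-ps1. How many of these peaks had a q above 0.05 was not counted. The peaks of Rpl32l, at 203 and 204 bp, are of this size, and its Early-B pileup was 17.2. Whether reads shared with the parent genes contribute was not tested.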
